A study of Mus musculus with 19 samples.

Results

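The effect of a MASH diet (MD, a diet that brings on metabolic dysfunction-associated steatohepatitis) against a control diet (CD) was measured in livers of mice that all received polyethylene microplastic (PE). The 5 livers of MD + PE were compared with the 5 of CD + PE. They make up 10 of the 19 bulk RNA-seq libraries of the series. These 10 were chosen by their treatment labels and not by any measured value. Every gene that passed a filter on low counts was tested, 13597 of 55836 listed. The animals were male C57BL/6 mice labelled WT, 8 weeks old at the start and kept 8 weeks on the diet, all with 2 mg of PE per mouse given by gavage each day. MD held 2% cholesterol, with 20 kcal% as fructose and 40 kcal% as fat, and CD held 10 kcal% as fat. The other 9 libraries are CD + Veh (n = 4) and MD + Veh (n = 5), the same diets with the vehicle of the gavage and no PE. They enter only where the diet effect with PE is set beside the diet effect without it. The 3 added components of MD were given together, so that fat, fructose and cholesterol cannot be told apart. PE was present on both sides of the comparison, which therefore does not measure PE. The libraries are whole liver, and a lower level of a gene in bulk RNA can come from fewer cells of a type or from less RNA per cell, which cannot be told apart. The labels number the libraries of a group 1 to 5 and the extraction protocol speaks of 4 livers, without saying per what. Each library was taken as 1 mouse, which the labels do not state. Where libraries shared an animal, the p-values would measure technical spread only.

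The liver makes cholesterol from acetyl-CoA through the mevalonate pathway and makes fatty acids from the same precursor. Both pathways are controlled by the sterol regulatory element-binding proteins (SREBPs), transcription factors made in the membrane of the endoplasmic reticulum. The carrier Scap takes them to the Golgi when membrane sterol is low, and the Insig proteins hold them back when it is high. Oxidised sterols also activate the liver X receptors, which switch on the pumps that move cholesterol out of cells and into bile. In fatty liver, triglyceride is stored in droplets coated by perilipin and CIDE proteins. Macrophages that take up lipid can switch on a set of genes that includes Gpnmb and Trem2.

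Levels are given as CPM, the counts of a gene relative to those of all tested genes in the library, after scaling between libraries. The values of a group are given for its libraries 1 to 5 in that order. A gene was called when its adjusted p was below 0.05 and its log2 fold change, MD + PE minus CD + PE, was at least 0.38 in size (edgeR's quasi-likelihood test with Benjamini-Hochberg adjustment over all 13597 genes). Log2 fold changes are given ± SE. Library totals ran from 10398820 to 12654401 counts in CD + PE and from 11163063 to 12757617 in MD + PE, with no detectable difference (exact permutation test, two-sided, p = 0.214, where 0.00794 is the smallest p that 5 against 5 allows). On the 500 genes of highest variance the first principal component held 29.1% of the variance and separated all 5 MD + PE libraries from all 5 CD + PE libraries.

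Of the 10 libraries, 4 stood apart in genes of other cell types or tissues. CD + PE library 1 carried skeletal muscle RNA, with a summed level of 567 CPM over 14 muscle genes against 5.42 to 14.2 in the rest of its group and 4.00 to 6.34 in MD + PE. CD + PE library 2 was high in genes of Kupffer cells, the resident macrophages of liver, at 1075 CPM over 14 genes against 167 to 266 in the other CD + PE libraries. It was likewise high in interferon-stimulated genes (1072 against 333 to 425 CPM). MD + PE library 2 held epithelial RNA of the digestive tract, with 2295 CPM of the gastric mucin Muc6 and 959 of the trefoil peptide Tff2, against 0 and at most 0.198 CPM in CD + PE. It also held 73.1 CPM of the intestinal phosphatase gene Alpi. A list of 9 gallbladder genes summed to 1600.5 CPM in this library and to 34.9 in MD + PE library 3. The organ of origin was not tested. MD + PE library 4 was the highest of the 10 in Col1a1, Gpnmb and Trem2, genes of collagen and of macrophages. Hepatocyte markers were plentiful in all 10 libraries (92094 to 125260 CPM in CD + PE and 74133 to 94980 in MD + PE, summed over 12 genes), and of 12 pancreatic enzyme genes only 1 passed the filter. Counts of calls, and some single genes, are given with and without these libraries.

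**Figure D1:**
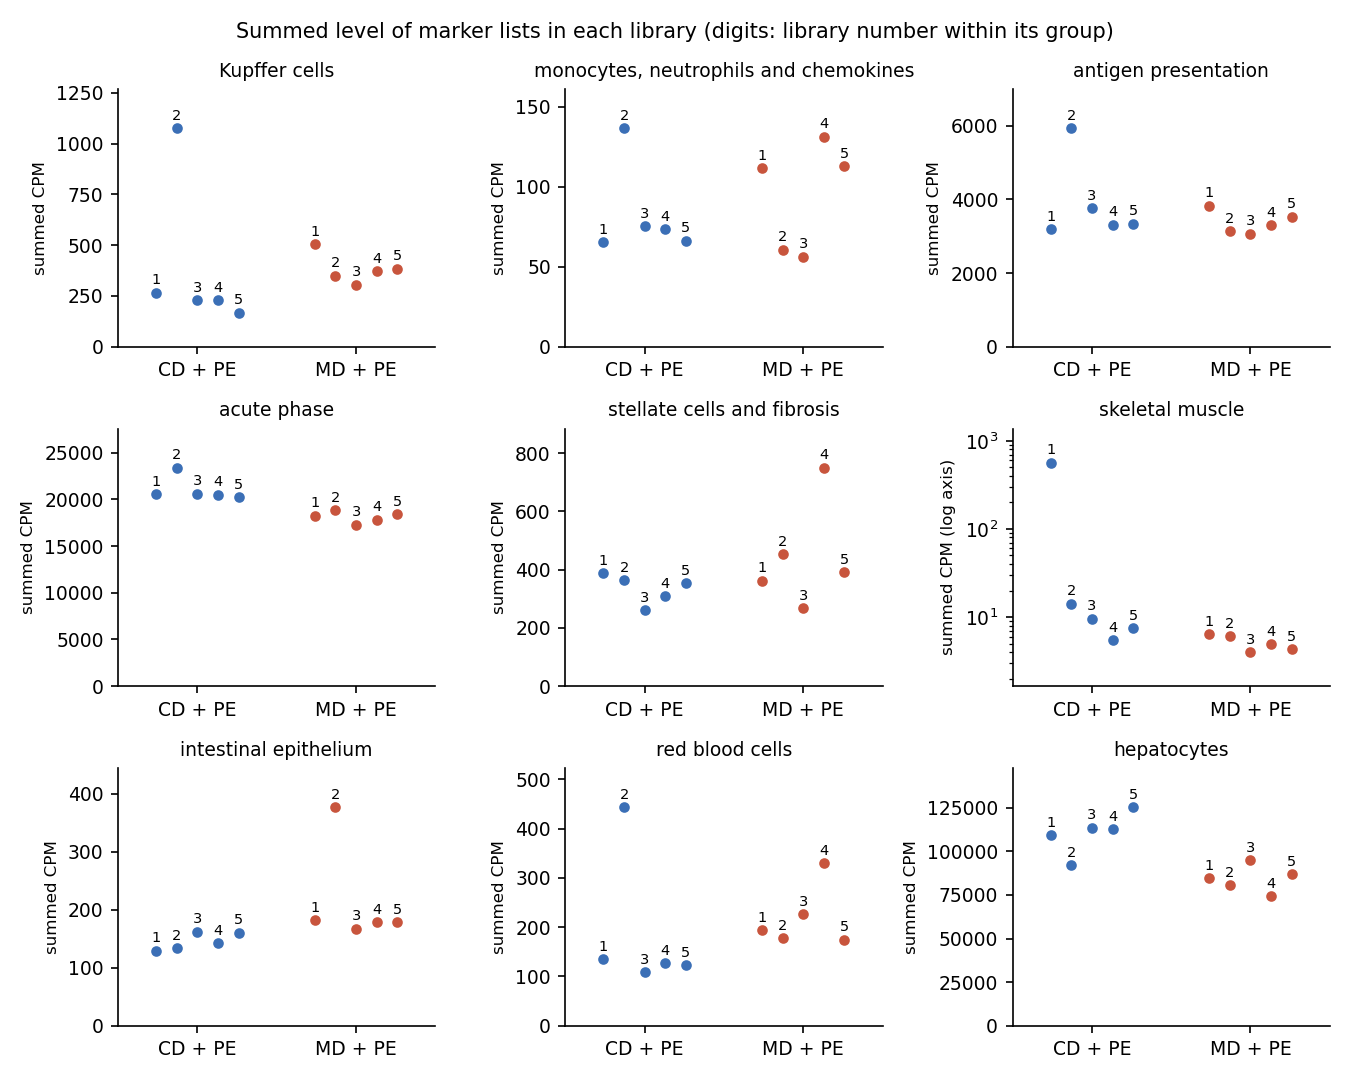
Summed level in CPM of 9 marker lists (vertical axis, logarithmic for skeletal muscle only) in each library of CD + PE (blue) and MD + PE (red), with 1 point per library and the library number above it. CD + PE library 1 stands apart in skeletal muscle at 567 CPM, CD + PE library 2 in Kupffer cells at 1075 CPM, and MD + PE library 2 in intestinal epithelium at 376 CPM.

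Of the 13597 genes tested, 627 were called (4.61%), 230 higher in MD + PE (1.69%) and 397 lower (2.92%). The lower genes included most of cholesterol and fatty acid synthesis and the higher ones genes of lipid storage, sterol export and a few macrophage genes. The median size of the change was 0.80 on the log2 scale for the higher genes and 0.63 for the lower ones, and 90 higher and 100 lower genes passed a 2-fold change. The libraries of the 2 groups did not overlap in 840 genes (6.18% of those tested), 301 of them higher in MD + PE (2.21%) and 539 lower (3.96%). Among the called genes 427 did not overlap. Without CD + PE library 2 the calls came to 987, 489 higher and 498 lower, with 566 of the 627 among them. Without CD + PE libraries 1 and 2 and MD + PE library 2 together they came to 691, 357 higher and 334 lower.

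**Figure D2:**
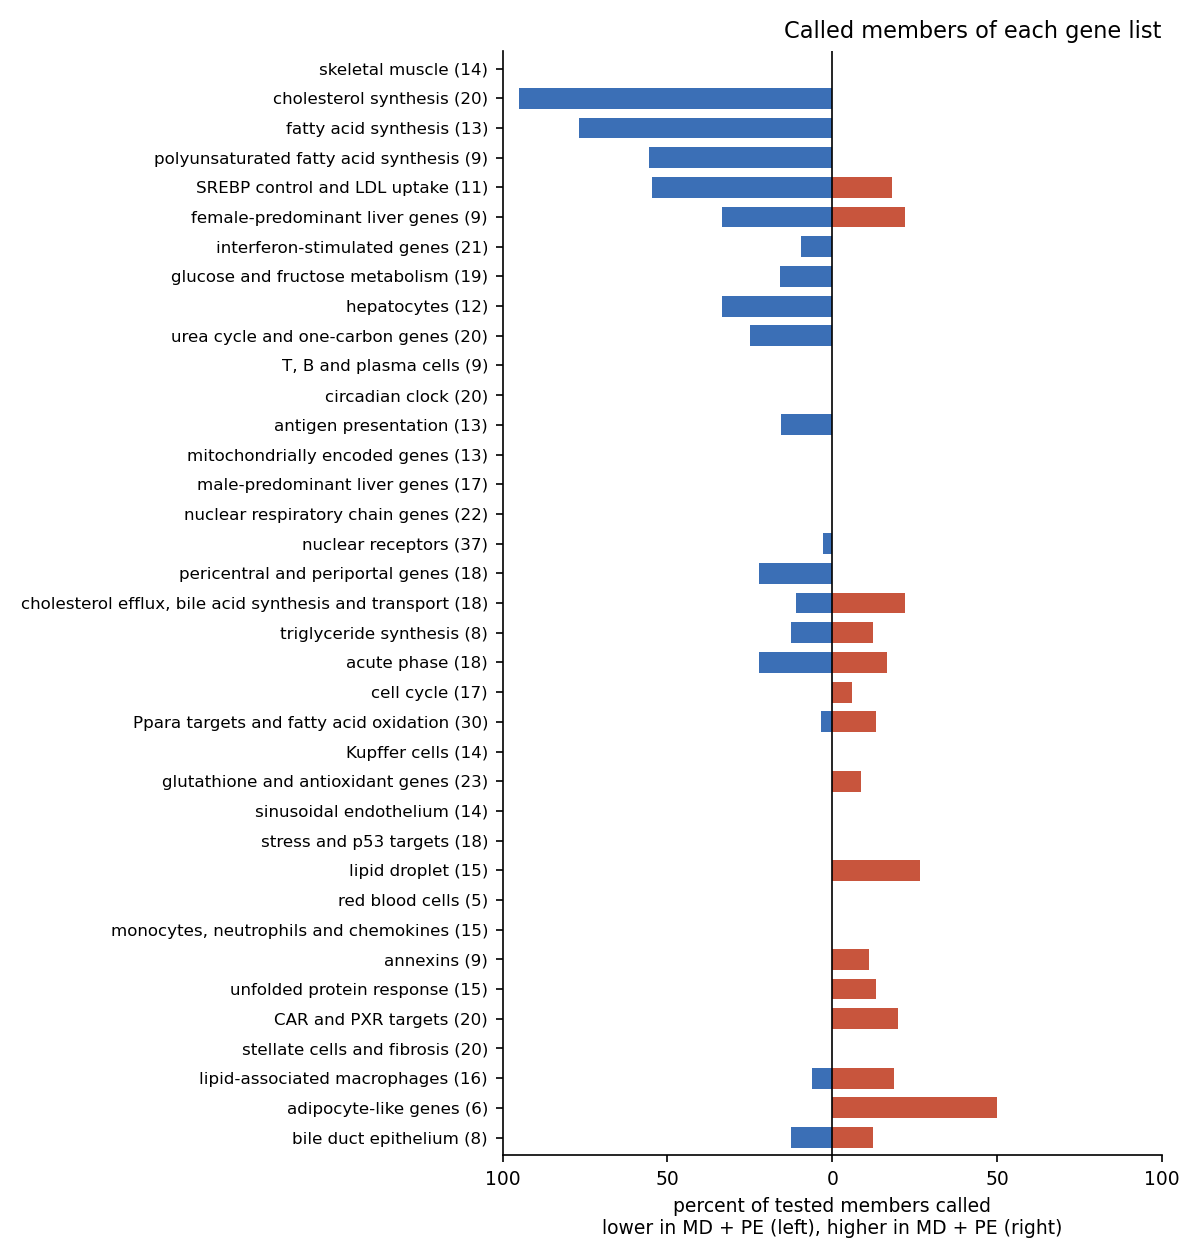
Percent of the tested members of each gene list (number tested in parentheses) that were called lower (blue, left) or higher (red, right) in MD + PE, for lists with at least 5 members tested, ordered by the median log2 fold change. Cholesterol synthesis reaches 95% on the lower side, against 2.92% of all genes, and adipocyte-like genes 50% on the higher side, against 1.69%.

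Cholesterol synthesis was lower across nearly the whole pathway in MD + PE. Of 20 enzymes of the pathway, all tested, 19 were called lower and none higher, with a median log2 fold change of -1.92 beside -0.02 over all genes tested. In 18 of the 20 no MD + PE library reached the level of any CD + PE library, which held for 3.96% of all genes tested. Many of the pathway's genes share a promoter feature that the comparison did not use. The 250 bases before the start of each gene were read from GRCm39, with start sites of the GENCODE vM39 canonical transcripts, for 12330 protein-coding genes tested. A CCAAT box, the letters bound by the factor NF-Y that often works beside SREBPs, lay on either strand in 15 of the 20 windows (75%), against 36.2% of all windows and 38.6% of the windows of the 370 protein-coding genes called lower. The letters TCACNCCAC, a core of the sterol regulatory element in which N is any base, lay on either strand in 1 of the 20 (5%) and in 1.09% of all windows. The windows of the 2 genes with the largest falls and of Hmgcs1, the single gene of the 20 with the strict element, are printed 5′ to 3′ on the gene's own strand. Capitals mark CCAAT boxes (CCAAT or its complement ATTGG) and the TCACNCCAC match.
Sqle, chr15:59186632-59186881, plus strand: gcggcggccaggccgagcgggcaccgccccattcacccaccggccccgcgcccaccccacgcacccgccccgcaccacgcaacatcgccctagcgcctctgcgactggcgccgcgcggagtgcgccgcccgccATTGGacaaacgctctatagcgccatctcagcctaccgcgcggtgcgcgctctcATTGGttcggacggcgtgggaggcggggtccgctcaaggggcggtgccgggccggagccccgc
Idi1, chr13:8935669-8935918, plus strand: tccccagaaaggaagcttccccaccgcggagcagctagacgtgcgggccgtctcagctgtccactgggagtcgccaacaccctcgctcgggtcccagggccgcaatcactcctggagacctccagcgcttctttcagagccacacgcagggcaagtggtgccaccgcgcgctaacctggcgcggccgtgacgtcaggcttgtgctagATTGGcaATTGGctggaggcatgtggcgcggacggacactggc
Hmgcs1, chr13:120151732-120151981, plus strand: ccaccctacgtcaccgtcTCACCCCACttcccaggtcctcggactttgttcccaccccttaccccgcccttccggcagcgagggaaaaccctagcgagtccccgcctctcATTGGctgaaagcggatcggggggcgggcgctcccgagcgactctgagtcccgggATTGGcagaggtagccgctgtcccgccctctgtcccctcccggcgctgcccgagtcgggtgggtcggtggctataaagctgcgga
Sqle has 2 CCAAT boxes, starting 117 and 63 bases before the start site, and Idi1 has 2 that lie close to the start site. Hmgcs1 has 2 and the strict element 232 bases before the start. A match describes these letters in these windows and was not tested as a binding site.

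The largest fall of the pathway was that of Sqle (squalene epoxidase, a rate-controlling step of the sterol branch, chr15:59186869-59203043 in GRCm39). Its level was 17.5, 66.9, 18.7, 33.9 and 39.7 CPM in CD + PE and 0.650, 1.43, 0.348, 1.30 and 0.0898 CPM in MD + PE. The groups lie far apart. The log2 fold change was -5.46 ± 0.48 (adjusted p = 5.39e-07), which is a 44.2-fold lower fitted level. Idi1, which isomerises the 5-carbon unit from which sterols are built, stood at 72.9, 165, 84.7, 136 and 142 CPM in CD + PE and 7.56, 10.2, 5.65, 11.5 and 6.82 in MD + PE, -3.84 ± 0.28 on the log2 scale (adjusted p = 7.83e-08). Fdps, which joins these units to farnesyl diphosphate, stood at 182, 363, 185, 298 and 314 CPM in CD + PE and 30.6, 31.7, 15.7, 49.5 and 24.8 CPM in MD + PE (-3.13 ± 0.30, adjusted p = 1.67e-06). For both genes all 5 MD + PE libraries were below all 5 CD + PE libraries.

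Hmgcs1, an early enzyme of the pathway, went from 206, 406, 246, 244 and 274 CPM in CD + PE to 95.5, 159, 105, 145 and 87.8 CPM in MD + PE (-1.22 ± 0.21, adjusted p = 0.00128). Of the later steps that strip methyl groups from lanosterol, Nsdhl fell by 3.06 ± 0.19 and Cyp51 fell by 2.67 ± 0.22. Mvd (-2.43), Pmvk (-2.39), Msmo1 (-2.29), Dhcr7 (-2.04), Tm7sf2 (-1.97), Mvk (-1.81), Lss (-1.78), Fdft1 (-1.47), Hsd17b7 (-1.33), Sc5d (-1.21), Acat2 (-1.18) and Ebp (-0.41) were called as well. Ebp, a sterol isomerase, had the smallest of these falls, and its call was lost without MD + PE library 4. The number of calls was 18 or 19 under every alternative setting and every library left out, and 19 without CD + PE library 2.

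**Figure D3:**
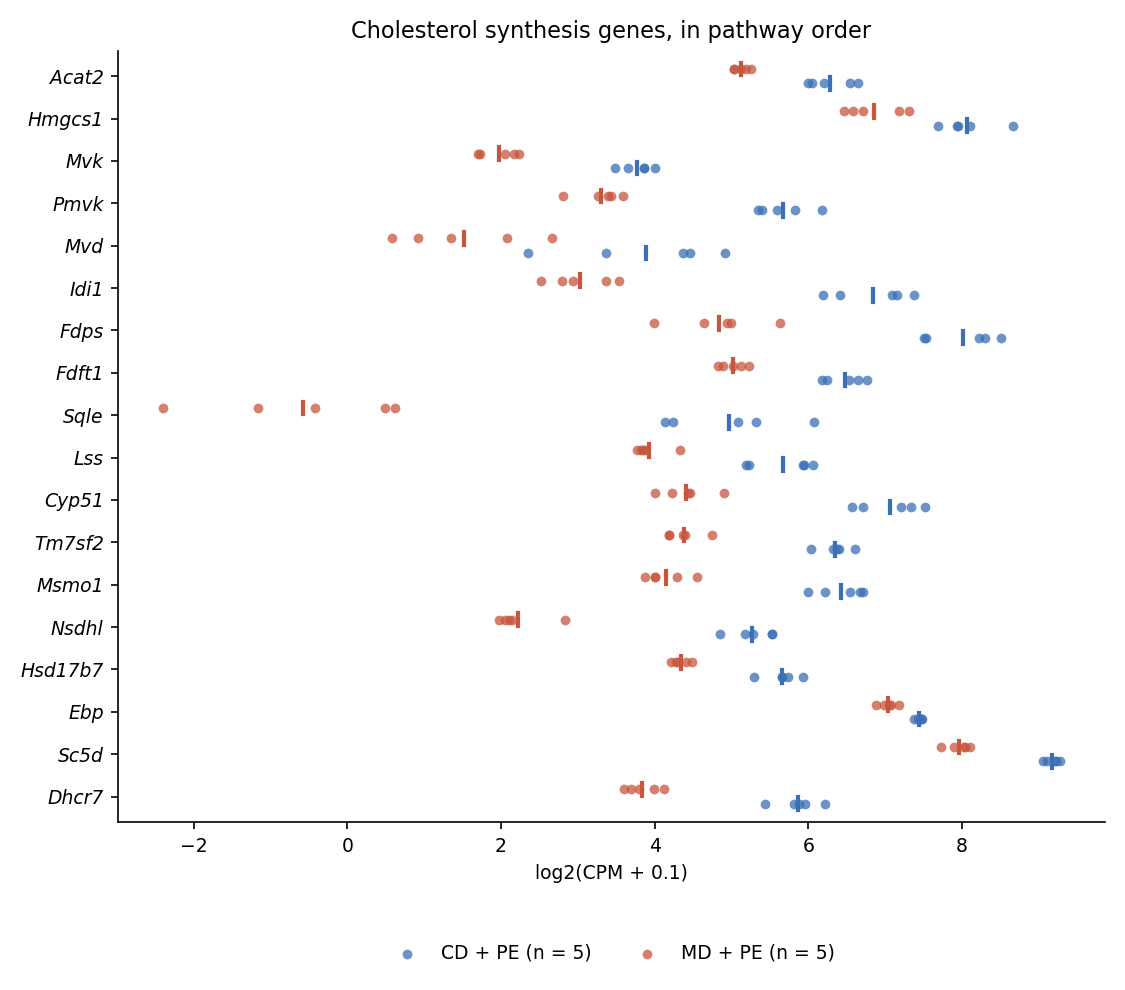
Level as log2(CPM + 0.1) of 18 of the 20 cholesterol synthesis genes, in the order of the pathway from top to bottom, with 1 point per library of CD + PE (blue) and MD + PE (red) and a bar at the group mean. The MD + PE points lie left of the CD + PE points in every gene shown but Mvd, where they overlap. Sqle lies at 0.0898 to 1.43 CPM in MD + PE against 17.5 to 66.9 CPM in CD + PE.

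The genes that sense sterol and take up lipoprotein moved with the pathway, in both directions. Of 11 tested genes of SREBP control and low-density lipoprotein (LDL) uptake, 6 were called lower and 2 higher (72.7%, beside 4.61% of all genes). Stard4, a sterol carrier, fell, at 80.9 to 118 CPM in CD + PE and 32.7 to 42.8 CPM in MD + PE (-1.36 ± 0.14), with no overlap. Srebf2, which encodes the SREBP of the cholesterol pathway, had 41.6 to 45.7 CPM in CD + PE and 24.8 to 30.6 CPM in MD + PE (-0.67 ± 0.09, adjusted p = 5.78e-05), and its carrier Scap fell by 0.59 ± 0.11. Insig1, an SREBP target that holds Scap back, was called lower (-1.19 ± 0.26) although CD + PE library 1, at 145 CPM, lay inside the MD + PE range of 139 to 218 CPM. Insig2, the other retention protein, rose from 188, 219, 217, 133 and 142 CPM in CD + PE to 341, 263, 229, 346 and 246 CPM in MD + PE (0.66 ± 0.16, adjusted p = 0.0169). Srebf1, which encodes the SREBP of fatty acid synthesis, was not called (0.51 ± 0.21, adjusted p = 0.153). It was called higher without CD + PE library 1 (0.77, adjusted p = 0.0111), which was the highest of its group at 569 CPM. The same held with a replicate block in the fit (0.54, adjusted p = 0.0209).

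Sterol export was higher in MD + PE. Of 18 genes for cholesterol efflux, bile acid synthesis and transport, 4 were called higher and 2 lower (33.3%, beside 4.61% of all genes). The 4 higher ones are sterol pumps that liver X receptors are known to control. Abcg5 and Abcg8, which form the pump for sterols into bile, rose together. Abcg5 went from 93.6, 51.7, 89.1, 83.9 and 70.05 CPM in CD + PE to 205, 245, 249, 161 and 230.0 CPM in MD + PE, and Abcg8 from 107, 58.2, 98.3, 94.999 and 88.4 CPM in CD + PE to 195, 272, 275, 145 and 244 CPM in MD + PE. Their log2 fold changes were 1.49 ± 0.15 (adjusted p = 2.04e-06) and 1.34 ± 0.17 (adjusted p = 4.58e-05). In each the lowest MD + PE library exceeded the highest CD + PE library. Abcg1, a pump for sterol onto lipoprotein, was at 6.23, 13.2, 6.36, 4.12 and 4.25 CPM in CD + PE and 18.8, 12.1, 15.5, 22.3 and 17.9 in MD + PE (1.34 ± 0.25, adjusted p = 0.00208). The overlap in Abcg1 came from CD + PE library 2, at 13.2 CPM. Abca1, which loads cholesterol onto apolipoprotein A1, rose less (0.46 ± 0.10, adjusted p = 0.00793), at 138 to 193 CPM in CD + PE and 198 to 254 CPM in MD + PE. Mylip, another liver X receptor target that marks lipoprotein receptors for breakdown, rose by 0.70 ± 0.16 (adjusted p = 0.0138). The bile acid importer Slc10a1 fell from 635, 414, 535, 502 and 532 CPM in CD + PE to 284, 308, 338, 186 and 300.0 CPM in MD + PE (-0.89 ± 0.15, adjusted p = 0.000855). Soat2, which esterifies cholesterol, was called lower by a small amount (-0.41 ± 0.12, adjusted p = 0.0366), a call that was lost when any of 8 of the 19 libraries was left out. Bile acid synthesis showed no call. Cyp7a1, its rate-limiting enzyme, spread over 50.6 to 127 CPM in CD + PE and 36.6 to 179.8 CPM in MD + PE (0.04 ± 0.40, adjusted p = 0.971), and Cyp8b1 was at -0.47 ± 0.16 (adjusted p = 0.0953).

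Fatty acid synthesis was lower in the MD + PE livers. Of 13 genes tested, 10 were called lower and none higher (76.9%, beside 4.61% of all genes). The median log2 fold change was -0.94. Acacb, the acetyl-CoA carboxylase at mitochondria, went from 117, 196, 99.8, 118 and 140.3 CPM in CD + PE to 15.4, 23.9, 11.04, 22.6 and 12.2 CPM in MD + PE (-2.97 ± 0.30, adjusted p = 2.51e-06), with no overlap. Acss2, which makes acetyl-CoA from acetate, was at 165 to 348 CPM in CD + PE and 42.9 to 53.8 CPM in MD + PE (-2.19 ± 0.21). The strict sterol element TCACNCCAC, looked for as above, lay in 4 of the 13 promoter windows of this list (30.8%, against 1.09% of all windows). The CCAAT box also lay in 4 of the 13 (30.8%), which is under the 36.2% of all windows. In the 11 windows of SREBP control and LDL uptake the CCAAT box lay in 4 (36.4%) and the strict element in 0. Acly, which makes acetyl-CoA from citrate, fell by 1.46 ± 0.23, and Slc25a1, the carrier that brings that citrate out of mitochondria, fell by 0.83 ± 0.08. Fasn, the fatty acid synthase, stood at 1149.6, 1393, 515, 884 and 775 CPM in CD + PE and 596, 519.9, 247, 349 and 254 CPM in MD + PE. These overlap, since MD + PE libraries 1 and 2 lie above CD + PE library 3, and Fasn was called at -1.26 ± 0.26 (adjusted p = 0.00601). Me1, which supplies NADPH, fell by 1.07 ± 0.19, and Elovl6, which lengthens palmitate, fell by 0.93 ± 0.24. Acaca, the cytosolic acetyl-CoA carboxylase, was near the threshold (-0.62 ± 0.17, adjusted p = 0.0297). The calls of Elovl6 and of Acaca were each lost when any 1 of 4 libraries was left out. Scd1, the desaturase that makes oleate, was not called, at 11308, 16010, 11926, 7212 and 11623 CPM in CD + PE and 10167, 12733, 8589.8, 11017 and 8508 CPM in MD + PE (-0.19 ± 0.19, adjusted p = 0.61). Mlxipl, the carbohydrate-sensing factor ChREBP, was at 0.02 ± 0.13 (adjusted p = 0.952). Thrsp, a lipogenic nuclear protein, was short of the call (-0.90 ± 0.28, adjusted p = 0.0584). It was called lower with the compared groups fitted alone (-0.89, adjusted p = 0.0267) and in some other fits. Pnpla3, a lipase that SREBP1 controls, was called lower (-2.34 ± 0.65, adjusted p = 0.036) at a low level, 0.706 to 5.00 CPM in CD + PE and 0.0869 to 0.926 in MD + PE. That call was lost without CD + PE library 2 and without any 1 of 4 MD + PE libraries. Pklr, the tenth, is given with sugar metabolism.

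Enzymes that build long polyunsaturated fatty acids were also lower. Of 9 genes tested, 5 were called lower (55.6%, beside 4.61% of all genes), with a median of -0.79 over the list. Fads1 and Fads2, the delta-5 and delta-6 desaturases, went from 490.5, 588, 636, 568 and 810.3 CPM in CD + PE to 170.0, 236, 164, 317 and 147 CPM in MD + PE and from 688, 766, 974, 835 and 1399 CPM in CD + PE to 380.1, 525, 414, 675 and 454 CPM in MD + PE. Neither gene's groups overlap, and the log2 fold changes were -1.58 ± 0.20 (adjusted p = 3.69e-05) and -0.93 ± 0.20 (adjusted p = 0.00663). Elovl2, which lengthens C20 and C22 chains, fell by 0.91 ± 0.11, and the acyl-CoA ligase Acsl5 fell by 0.79 ± 0.11. Elovl5, which lengthens C18 chains, was at 758, 917, 967, 609 and 909 CPM in CD + PE and 299.9, 454, 261, 638 and 276 in MD + PE (-1.11 ± 0.23, adjusted p = 0.00473), where MD + PE library 4 lay among the CD + PE values. Of triglyceride synthesis, Gpam, the first acyl transfer onto glycerol, was called lower (-0.62 ± 0.17, adjusted p = 0.0321) and Mogat1, an acyltransferase that is nearly silent in lean liver, higher (1.91 ± 0.47, adjusted p = 0.0189) among 8 genes tested. These calls are 25% of the triglyceride list, beside 4.61% of all genes. The Gpam call was lost without any 1 of 6 libraries and the Mogat1 call without MD + PE library 4.

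Some genes of fat storage rose severalfold in MD + PE. Of 15 lipid droplet genes tested 4 were called higher and none lower (26.7%, beside 4.61% of all genes). Cidec, which fuses droplets and is an adipocyte gene in lean animals, was at 1.16, 0.702, 2.21, 0.904 and 1.48 CPM in CD + PE and 21.9, 28.04, 9.91, 59.9 and 20.02 CPM in MD + PE, a rise of 4.43 ± 0.52 (adjusted p = 1.83e-05). Its relative Cidea was at 0, 0.175, 0.441, 0 and 0 CPM in CD + PE and 4.47, 2.61, 1.13, 5.08 and 6.02 CPM in MD + PE (4.83 ± 0.71, adjusted p = 0.000261). It had no count in 3 of the 5 CD + PE libraries. Plin4, a perilipin of adipocytes and muscle, rose from 10.4, 6.14, 18.01, 9.24 and 15.02 CPM in CD + PE to 41.3, 69.1, 54.9, 78.3 and 74.1 CPM in MD + PE (2.43 ± 0.31, adjusted p = 4.78e-05). All 3 genes had no overlap between the groups. Mgll, the last lipase of triglyceride breakdown, was called at 0.42 ± 0.12 (adjusted p = 0.0422), and the call was lost when any 1 of 11 libraries was left out. Plin2, the main droplet coat protein of hepatocytes, was not called, at 349.9, 341, 497, 279 and 332 CPM in CD + PE and 362, 339.7, 309, 516 and 367 CPM in MD + PE (0.07 ± 0.15, adjusted p = 0.832).

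Of 6 tested genes of an adipocyte-like list 3 were called higher (50%, beside 4.61% of all genes). The other 3 had positive log2 fold changes without a call. The largest rise among called genes with no overlap and at least 5 CPM in the higher group was that of Cfd (adipsin, a complement protease made by adipocytes, chr10:79726668-79728496), at 1.08, 1.49, 2.12, 0.502 and 0.889 CPM in CD + PE and 112, 207, 164, 68.4 and 211 CPM in MD + PE. That is 6.94 ± 0.50 on the log2 scale (adjusted p = 6.91e-08), a 123-fold higher fitted level. Cd36, the fatty acid transporter, rose from 33.7, 37.1, 55.4, 14.2 and 30.8 CPM in CD + PE to 86.1, 119.8, 89.3, 129 and 128 CPM in MD + PE (1.69 ± 0.32, adjusted p = 0.00279). Fabp4, the fatty acid carrier of adipocytes and macrophages, was at 4.68 to 8.30 CPM in CD + PE and 10.6 to 37.6 CPM in MD + PE (1.43 ± 0.34, adjusted p = 0.0152), with MD + PE library 4 the highest. Pparg, a driver of fat storage, had 0.60 ± 0.25 (adjusted p = 0.166). Lpl, the lipase of lipoproteins, had 1.12 ± 0.37 (adjusted p = 0.0721) with no overlap between the groups. It was called higher without CD + PE library 2 (1.38, adjusted p = 0.0264), with the compared groups fitted alone (1.13, adjusted p = 0.0405) and in some other fits. In the opposite direction Fabp5, the epidermal fatty acid carrier, fell from 59.6, 119, 40.1, 83.9 and 99.98 CPM in CD + PE to 5.36, 7.49, 5.65, 7.76 and 4.58 CPM in MD + PE, -3.70 ± 0.34 on the log2 scale (adjusted p = 8.4e-07).

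**Figure D4:**
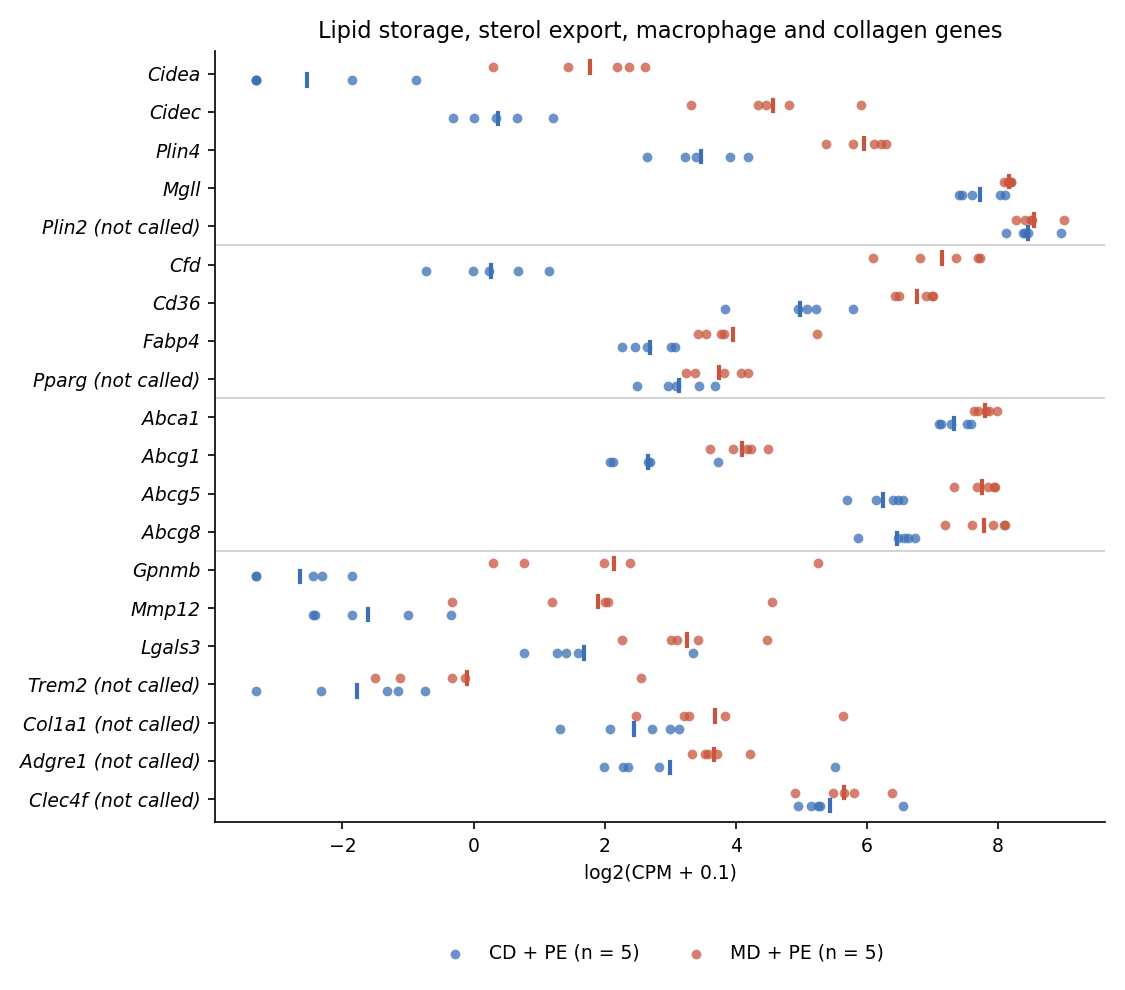
Level as log2(CPM + 0.1) of 20 genes of lipid droplets, adipocyte-like genes, sterol pumps, and macrophages with collagen (blocks from top to bottom), with 1 point per library of CD + PE (blue) and MD + PE (red) and a bar at the group mean. Cfd lies at 68.4 to 211 CPM in MD + PE against 0.502 to 2.12 in CD + PE, and in Gpnmb, Mmp12, Trem2 and Col1a1 a single MD + PE library lies far to the right of the other 4.

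Genes of fatty acid oxidation differed in part, mostly upward. A list of 30 genes held targets of the fatty acid receptor Ppara together with genes of fatty acid oxidation. Of these, 4 were called higher and 1 lower (16.7% of the list, beside 4.61% of all genes called). Another 20 of the 30 had a positive log2 fold change without a call, 10 of all 30 had an unadjusted p below 0.05, and the median was 0.15. Aldh3a2, which oxidises fatty aldehydes, rose from 296, 236, 398, 239 and 317 CPM in CD + PE to 675, 693, 669, 719.9 and 771 CPM in MD + PE (1.25 ± 0.16, adjusted p = 5.78e-05) with no overlap. Acaa1b (0.79 ± 0.16) and Ehhadh (0.73 ± 0.15) of peroxisomes and Acadm (0.60 ± 0.12) of mitochondria were the other 3. The call in the other direction was Fabp1, the liver fatty acid carrier, at 3735 to 5425 CPM in CD + PE and 3054 to 3881 in MD + PE (-0.43 ± 0.12, adjusted p = 0.0344), which was lost when any 1 of 6 libraries was left out. Cyp4a14 and Cyp4a10, P450s that Ppara ligands induce, were not called. Cyp4a14 spread over 40.3 to 394 CPM in CD + PE alone (0.05 ± 0.74, adjusted p = 0.982), Cyp4a10 had 0.71 ± 0.49 (adjusted p = 0.429). Ppara itself was at 75.97, 59.03, 89.9, 89.8 and 97.8 CPM in CD + PE and 79.7, 89.01, 100.1, 80.8 and 103 CPM in MD + PE (0.13 ± 0.14, adjusted p = 0.622).

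Among nuclear receptors as a family, 1 of 37 tested (2.7%, under the 4.61% of all genes) was called, Nr2c1 at -0.42 ± 0.12 (adjusted p = 0.0469). Its call was lost when any 1 of 15 libraries was left out. Rxra, the shared partner of these receptors, was at 0.03 ± 0.08 (adjusted p = 0.86). Nr1i3, the drug-sensing receptor CAR, stood at 194, 96.7, 289, 162 and 222 CPM in CD + PE and 222, 235, 286, 143 and 298 CPM in MD + PE (0.30 ± 0.25, adjusted p = 0.538). Targets of CAR and of its relative PXR were called higher in 4 of 20 genes tested, none lower (20%, beside 4.61% of all genes called). Cyp3a11, a main drug-metabolising P450 of mouse liver, rose from 948, 687, 1304, 904 and 1212 CPM in CD + PE to 2561, 2319.8, 3286, 3354 and 3169 CPM in MD + PE (1.54 ± 0.18, adjusted p = 1.43e-05). The exporter Abcc3 rose from 144, 146, 206, 111 and 162 CPM in CD + PE to 276, 323, 358, 301 and 377 CPM in MD + PE (1.09 ± 0.18, adjusted p = 0.000916). Both had no overlap. Cyp2c29 was called with overlap (0.74 ± 0.20, adjusted p = 0.0328), a call that was lost without any 1 of 6 libraries and with the compared groups fitted alone. Cyp2b10, the standard CAR target, rose at a level near 0, with 0 to 0.530 CPM in CD + PE and 0.813 to 2.42 CPM in MD + PE (2.90 ± 0.76, adjusted p = 0.0254). Ephx1, the microsomal epoxide hydrolase, rose by 0.70 ± 0.08 (adjusted p = 1.78e-05). Of 17 genes with male-predominant expression in liver none was called, against 2 at an unadjusted p below 0.05. Of 9 female-predominant genes 3 were called lower, Cyp17a1 (-2.59 ± 0.41), Cyp2c40 (-1.62 ± 0.31) and Abcd2 (-1.48 ± 0.43), and 2 higher, Cyp2b10 and Sult1e1. These calls are 55.6% of the genes tested in that list, beside 4.61% of all genes. The Abcd2 call was lost without any 1 of 12 libraries, that of Sult1e1 without any 1 of 11 and that of Cyp2b10 without any 1 of 3. Sult1e1 had 3 counts in all of CD + PE, and its level did not exceed 0.988 CPM in MD + PE.

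Macrophage genes of the lipid-associated type differed widely between MD + PE libraries. Of 16 tested, 3 were called higher and 1, Fabp5, lower (25%, beside 4.61% of all genes). Gpnmb, a glycoprotein of lipid-laden macrophages (chr6:49013426-49047863), was at 0.0830, 0.175, 0, 0.1004 and 0 CPM in CD + PE and 5.12, 1.60, 1.13, 37.97 and 3.86 CPM in MD + PE, 6.93 ± 1.26 on the log2 scale (adjusted p = 0.00191). The 5 CD + PE libraries held 4 counts in all. Mmp12, the macrophage elastase, was at 0.0830, 0.0877, 0.177, 0.402 and 0.692 CPM in CD + PE and 3.90, 2.19, 0.695, 23.3 and 4.04 CPM in MD + PE (4.59 ± 0.91, adjusted p = 0.00404). In both genes every MD + PE library exceeded every CD + PE library, and library 4 was the highest. Lgals3 was called near the threshold (1.46 ± 0.44, adjusted p just under the threshold). The call was lost without any 1 of 17 libraries. Trem2, a receptor that marks these cells, had 0.498, 0.351, 0, 0.301 and 0.0988 CPM in CD + PE and 0.813, 0.253, 0.695, 5.77 and 0.359 CPM in MD + PE and was not called (2.63 ± 0.86, adjusted p = 0.0722). It was called higher with DESeq2 (2.68, adjusted p = 0.0199) and, near the threshold, without MD + PE library 2 (2.90, adjusted p = 0.0491). Apoe (0.32 ± 0.11, adjusted p = 0.0992) and Ctsd (0.03 ± 0.10, adjusted p = 0.906), which hepatocytes also express, were not called.

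Kupffer cell genes gave no call in 14 tested, with 1 at an unadjusted p below 0.05, and this count depended on CD + PE library 2. The macrophage marker Adgre1 (F4/80) stood at 4.73, 45.6, 6.97, 5.02 and 3.85 CPM in CD + PE, so that library 2 held more than any MD + PE library (18.5, 12.97, 9.997, 11.4 and 11.9 CPM) and the other 4 held less than any of them. Its log2 fold change was -0.04 ± 0.50 with all 10 libraries and 1.33 without CD + PE library 2 (adjusted p = 0.000824). Marco, the scavenger receptor, reached 256 CPM in that library against 2.33 to 34.1 CPM in MD + PE (-1.89 ± 0.94, adjusted p = 0.256). Clec4f, a lectin of Kupffer cells, reached 93.8 CPM against 29.8 to 82.97 (0.15 ± 0.29, adjusted p = 0.816). Without CD + PE library 2, 8 of the 14 Kupffer genes and 8 of the 16 lipid-associated macrophage genes were called higher, together with 5 antigen presentation genes, 3 endothelial genes and 2 genes of monocytes, neutrophils and chemokines. With CD + PE libraries 1 and 2 and MD + PE library 2 left out together, 8 Kupffer genes and 7 lipid-associated macrophage genes were called higher. Other lists gained calls without CD + PE library 2 as well, namely acute phase (6 higher in place of 3), antioxidants (5 in place of 2), annexins and cell cycle (3 each in place of 1), and stress and red blood cells (2 each in place of 0). On the lower side these were sugar metabolism (6 in place of 3), clock genes (2 in place of 0) and nuclear receptors (2 in place of 1). Calls rose over all genes as well in that fit, which tested 13608. They came to 489 higher in place of 230 and 498 lower in place of 397. Small gains in a list are therefore not particular to it. Without MD + PE library 4 the lipid-associated macrophage genes called higher were 2, and over all genes 526 were called in place of 627, 211 higher and 315 lower.

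Collagen and stellate cell genes were not called in any of 20 tested, although 18 had a positive log2 fold change and 9 an unadjusted p below 0.05, with a median of 0.47. Col1a1, the chain of fibrillar collagen, was at 8.72, 6.49, 2.38, 4.12 and 7.90 CPM in CD + PE and 9.18, 14.2, 5.48, 49.4 and 9.61 CPM in MD + PE (1.58 ± 0.58, adjusted p = 0.113), where MD + PE library 4 is far above the other 4. The summed level of the list ran over 261 to 389 CPM in CD + PE and 269 to 452 CPM in MD + PE without library 4, which held 749.9 CPM. Anxa2, which binds membranes in the presence of calcium, was the 1 annexin called of 9 (11.1%, beside 4.61% of all genes called). Its level went from 7.55, 11.2, 6.89, 6.23 and 5.53 CPM in CD + PE to 28.1, 36.5, 13.3, 67.7 and 21.01 CPM in MD + PE (2.15 ± 0.39, adjusted p = 0.00183), with no overlap and again with library 4 the highest.

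Antigen presentation and interferon genes gave 2 calls each, all lower (15.4% and 9.52% of those tested, beside 4.61% of all genes called). H2-Q7 fell from 93.9, 216, 114, 101 and 107 CPM in CD + PE to 83.6, 55.8, 63.2, 51.8 and 58.3 CPM in MD + PE (-1.02 ± 0.20, adjusted p = 0.00438) and its near copy H2-Q6 likewise (-0.79 ± 0.20), and reads of these 2 genes may have been split between them. The transcription factors Irf1 (-0.71 ± 0.20, adjusted p = 0.0381) and Stat2 (-0.45 ± 0.10, adjusted p = 0.0107) were the interferon calls among 21 genes. CD + PE library 2 had the highest value in all 4 genes, and Stat2 was not called without it. The Irf1 call was lost without any 1 of 6 other libraries, and that of H2-Q6 without MD + PE library 2 or 5. With the compared groups fitted alone Irf1, Stat2 and H2-Q6 were not called. No gene was called among 15 of monocytes, neutrophils and chemokines (4 at an unadjusted p below 0.05), 9 of T, B and plasma cells (1) or 14 of sinusoidal endothelium (3).

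Acute phase genes, which liver switches on in inflammation, were called in both directions, 3 higher and 4 lower of 18. That is 38.9% of the list, beside 4.61% of all genes. Orosomucoids rose, Orm3 from 0.830, 0.263, 0.441, 0.1004 and 0.593 CPM in CD + PE to 5.20, 5.89, 2.61, 5.63 and 9.97 CPM in MD + PE (3.67 ± 0.41, adjusted p = 1.13e-05). Orm2 rose from 6.56, 18.1, 6.09, 5.72 and 4.74 CPM in CD + PE to 33.6, 46.8, 11.6, 40.4 and 33.5 CPM in MD + PE (2.00 ± 0.39, adjusted p = 0.00308). The pair are close copies, between which reads may have been split. Lcn2, the siderophore-binding lipocalin, was called at 2.38 ± 0.67 (adjusted p = 0.0376) and lost in 7 of the 19 fits that left out a library. Saa1, serum amyloid A, was at 22.2, 277, 50.8, 32.3 and 41.3 CPM in CD + PE and 239.9, 345, 69.4, 336 and 219 CPM in MD + PE and was not called (1.51 ± 0.61, adjusted p = 0.15). CD + PE library 2 lay inside the MD + PE range. Without that library Saa1 was called higher (2.725, adjusted p = 0.00204). The 3 fibrinogen chains fell by similar amounts, Fga (-0.47 ± 0.08), Fgb (-0.52 ± 0.09) and Fgg (-0.43 ± 0.08), the last not called without MD + PE library 4. Apcs (serum amyloid P) fell, at 36.5 to 57.5 CPM in CD + PE and 17.3 to 27.7 CPM in MD + PE (-1.04 ± 0.14, adjusted p = 0.000123).

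Secreted and metabolic products of hepatocytes were lower in part. Of 12 hepatocyte markers 4 were called lower and none higher (33.3%, beside 4.61% of all genes). Albumin (Alb) went from 54827, 45968, 57858, 55144 and 69170 CPM in CD + PE to 36125, 35790, 43759, 32286 and 36310 CPM in MD + PE, with no overlap (-0.62 ± 0.14, adjusted p = 0.00981). Apoa1 (-0.48 ± 0.10), Ttr (-0.52 ± 0.09) and the fibrinogen chain Fgb were the other 3. Of 20 genes of the urea cycle and one-carbon metabolism 5 were called lower and none higher (25%, beside 4.61% of all genes). Gls2, the liver glutaminase, fell by 0.93 ± 0.11 (adjusted p = 2.61e-05), with 203 to 285 CPM in CD + PE and 104 to 145 CPM in MD + PE. Ass1 (-0.79 ± 0.12) and Arg1 (-0.51 ± 0.10) of the urea cycle, Gnmt (-0.76 ± 0.10), which uses up methyl groups, and Pemt (-0.58 ± 0.08), which methylates phosphatidylethanolamine, were the other calls. Gls2, Ass1 and Arg1, periportal enzymes, are also 3 of the 4 zonated genes called lower among 18 (22.2%, beside 4.61% of all genes). Aldh1b1 was the fourth (-0.43 ± 0.13, adjusted p = 0.0456), and its call was lost without any 1 of 12 libraries. In sugar metabolism 3 of 19 genes were called, all lower (15.8%, beside 4.61% of all genes). These were pyruvate kinase Pklr (-0.94 ± 0.18), fructokinase Khk (-0.46 ± 0.11) and the gluconeogenic Fbp1 (-0.41 ± 0.08). G6pc1, the last step of glucose release, was not called (-0.29 ± 0.25). None of 22 nuclear genes of the respiratory chain and none of 13 mitochondrially encoded genes was called, against 4 and 3 at an unadjusted p below 0.05.

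Stress lists held few calls. Of 15 genes of the unfolded protein response 2 were called higher (13.3%, beside 4.61% of all genes called). Chac1, which degrades glutathione, rose from 1.91, 2.46, 1.85, 2.31 and 4.15 CPM in CD + PE to 5.44, 8.08, 9.56, 11.6 and 10.2 CPM in MD + PE (1.83 ± 0.35, adjusted p = 0.00308). The chaperone Dnajc3 was the other (0.41 ± 0.11, adjusted p = 0.0311), with a call that was lost without any 1 of 4 libraries. Of 23 antioxidant genes Gsta2 (1.13 ± 0.24) and Gpx1 (0.58 ± 0.11) were called higher (8.7% of the list, beside 4.61% of all genes called). Of 18 stress and p53 targets none was called (3 at an unadjusted p below 0.05). Of 17 cell cycle genes 1 was called, Mcm2 (0.80 ± 0.23, adjusted p = 0.039), which is 5.88% and close to the 4.61% of all genes. The Mcm2 call was lost without any 1 of 7 libraries. None of 20 clock genes was called (3 at an unadjusted p below 0.05). The clock score, the mean log2 CPM of 5 genes of the positive arm minus that of 7 of the other arm, overlapped between the groups, -2.86 to 0.738 in CD + PE and -1.86 to -0.0166 in MD + PE (exact permutation test, two-sided, p = 0.381). Dbp, an output gene of the clock, was at 78.04, 10.8, 64.8, 106 and 116 CPM in CD + PE and 16.1, 27.4, 41.03, 38.2 and 60.3 CPM in MD + PE (-1.04 ± 0.44, adjusted p = 0.171), and Bmal1 at 0.28 ± 0.35. Without CD + PE library 2 Dbp was called lower (-1.32, adjusted p = 0.0146).

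Several large differences lay outside these lists. Chrna4, a subunit of the nicotinic acetylcholine receptor (chr2:180660173-180685339), was at 10.8, 23.7, 6.53, 11.9 and 12.1 CPM in CD + PE and nearly absent in MD + PE, where the 5 libraries held 6 counts in all (0.0813, 0, 0, 0.343 and 0 CPM, -6.93 ± 0.77, adjusted p = 9.77e-06). Ugt1a5, a glucuronosyltransferase that shares most of its exons with its neighbours, fell from 55.3, 109, 78.8, 52.7 and 106 CPM in CD + PE to 12.1, 19.8, 6.78, 10.5 and 6.64 CPM in MD + PE (-2.85 ± 0.32, adjusted p = 1.18e-05). The adhesion receptor Adgrf1 (-3.19 ± 0.58, adjusted p = 0.00181), the small membrane protein Pdzk1ip1 (-2.90 ± 0.38, adjusted p = 6.03e-05) and Hamp2, a copy of the iron hormone hepcidin (-2.79 ± 0.40, adjusted p = 0.000176), fell with no overlap. Adam11, an ADAM protein without protease activity, rose from 15.4, 7.72, 10.5, 7.33 and 8.89 CPM in CD + PE to 71.9, 75.2, 97.4, 53.8 and 82.4 CPM in MD + PE, 2.93 ± 0.22 on the log2 scale (adjusted p = 8.95e-08). The unnamed locus Gm19619 rose with little spread, at 1.33 to 1.59 CPM in CD + PE and 6.26 to 10.1 CPM in MD + PE (2.53 ± 0.16, adjusted p = 1.22e-08). Themis, known from T cell development, rose from 1.49, 0.263, 1.15, 0.703 and 0.494 CPM in CD + PE to 4.39, 4.88, 5.82, 11.2 and 6.29 CPM in MD + PE (2.96 ± 0.44, adjusted p = 0.000272). The keratin Krt23 rose from 0.581, 0.702, 0.618, 0.402 and 0.790 CPM in CD + PE to 3.49, 3.45, 3.48, 7.07 and 7.45 CPM in MD + PE (2.99 ± 0.34, adjusted p = 1.25e-05). Tstd1 was the other bile duct gene called, lower (-0.81 ± 0.24, adjusted p = 0.0415), and its call was lost without any 1 of 11 libraries. A further pair of calls came from 1 library. Ctse, a gastric cathepsin, was at 0.975, 49.3, 1.74, 1.44 and 1.44 CPM in MD + PE (5.17 ± 1.28, adjusted p = 0.0183). Galnt6, which starts mucin-type sugar chains, was at 1.06, 20.2, 1.13, 1.37 and 1.35 CPM (3.50 ± 0.87, adjusted p = 0.0193). Both were highest in MD + PE library 2 and not called without it. Krt19, a bile duct keratin, in that library was at 58.7 CPM against 0.351 to 2.71 CPM in CD + PE. Of 5 red blood cell genes none was called and none had an unadjusted p below 0.05. Of 14 skeletal muscle genes none was called (8 at an unadjusted p below 0.05). Fabp2, which the list of intestinal genes holds, rose in all 5 MD + PE libraries to 97.8 to 118 CPM from 55.3 to 76.96 CPM (0.72 ± 0.11, adjusted p = 0.000439).

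Of 25 genes singled out in earlier work on these livers, 3 were called higher and 8 lower. Acp3, a membrane acid phosphatase, was 1 of the 8 and stood at 10.2, 7.63, 5.83, 6.03 and 5.83 CPM in CD + PE and 1.87, 3.20, 3.65, 1.92 and 3.50 CPM in MD + PE (-1.34 ± 0.27, adjusted p = 0.00476). The groups did not overlap. Others were not called, namely Angptl8 (-0.62 ± 0.33, adjusted p = 0.291), Lepr (-1.01 ± 0.49, adjusted p = 0.234), Cyp26b1 (0.58 ± 0.60, adjusted p = 0.625), Gadd45g (-0.63 ± 0.63, adjusted p = 0.61), Cyb5a (0.33 ± 0.11, adjusted p = 0.0868), Oit3 (0.27 ± 0.12, adjusted p = 0.21), mt-Nd6 (0.53 ± 0.25, adjusted p = 0.224) and Cyp4a12a (-0.28 ± 0.22, adjusted p = 0.504). Prkcb (-0.28 ± 0.33), Fubp3 (-0.09 ± 0.10), Pask (-0.32 ± 0.45) and Nkap (0.13 ± 0.12) were not called either. Since these genes were picked with these libraries in view, their counts are not independent evidence.

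The members that were not called but had the highest mean CPM in their list, 2 at most per list, are given for scale with their log2 fold changes. For lipid storage these were Hsd17b13 (0.15), Dgat2 (-0.14), Lpin2 (0.07) and Car3 (0.23). For sterol uptake and bile acids they were Lrp1 (0.11), Slc27a5 (-0.10) and Abcb11 (-0.13). For fatty acid chains and oxidation they were Elovl3 (-0.12) and Fads6 (-0.16). The hepatocyte and zonated genes were Trf (-0.20), Cyp2e1 (0.37) and Pck1 (-0.40). Those of the urea and one-carbon genes were Cps1 (-0.27) and Bhmt (0.14). Of drug and antioxidant genes they were Gstm1 (-0.06), Aldh1a1 (0.45) and Cat (-0.02). Of acute phase genes they were Hp (0.33) and Hpx (-0.04). Among sex-biased genes and nuclear receptors they were Mup20 (0.40), Mup7 (-0.14), Prlr (-0.45), Acot3 (-1.33) and Hnf4a (-0.08). Among macrophage and chemokine genes they were Cd5l (0.48), Ctsb (0.05), Ccl9 (-0.34) and Cxcl9 (0.37). Those of lymphocytes and antigen presentation were Ighm (-0.81), Igkc (1.36), H2-K1 (-0.30) and B2m (-0.17). Of interferon-stimulated genes Igtp had -1.59. Stromal and bile duct ones were Dcn (0.18), Col3a1 (1.05), Ehd3 (0.19), Stab2 (0.32) and Spp1 (0.45). The annexins were Anxa5 (0.77) and Anxa6 (-0.13). Stress genes and chaperones were Hspa5 (0.38), Hsp90b1 (0.36), Trp53inp1 (0.05) and Jun (0.24). The cell cycle and clock gave Ccnd1 (0.12), Pcna (-0.07), Bhlhe40 (-0.38) and Tef (-0.22). Mitochondrial genes of both genomes were mt-Co1 (-0.20), mt-Cytb (-0.13), Atp5f1a (-0.12) and Atp5f1b (-0.10). Other tissues gave Alas2 (0.05), Hba-a1 (0.31), Cdhr5 (-0.17), Lgals4 (0.46) and Cela1 (-0.70). High in a library that stood apart were Ttn (-7.13), Acta1 (-7.07) and Sprr1a (6.70). All had an adjusted p of at least 0.0722, that of Igtp.

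The diet effect with PE was next set beside the diet effect with vehicle, MD + Veh (n = 5) against CD + Veh (n = 4), which shares no library with it. With vehicle 1410 genes were called (10.4%), 644 higher (4.74%) and 766 lower (5.63%). Of the 627 genes called with PE, 393 were also called with vehicle, which is 62.7% of the first list and 27.9% of the second. All 393 had the same direction, 142 higher and 251 lower. Shared calls of opposite direction numbered 7 of 464 with DESeq2, 4 of 398 with a replicate block and 1 of 351 without CD + Veh library 3. Of the 627, 603 had the same sign with vehicle (96.2%), beside 69.4% of all genes tested. The 234 genes called with PE alone had the same sign with vehicle in 210, with a median size of 0.55 with PE and 0.30 with vehicle. Cholesterol synthesis was lower by the same median in both, -1.92 with PE and -1.92 with vehicle, with 19 genes called each time. Medians of other lists differed more, such as fatty acid synthesis (-0.94 with PE, -1.49 with vehicle) and polyunsaturated fatty acid synthesis (-0.79 and -0.61). Kupffer cell genes had 0.16 and 0.70. Ppara targets and fatty acid oxidation had 0.15 and 0.47, with 4 genes called higher with PE and 13 with vehicle. Sqle was at -5.65 ± 0.43 with vehicle, Cfd at 7.56 ± 0.58, Abcg5 at 1.54 ± 0.16, Cidec at 3.45 ± 0.53 and Fabp5 at -5.10 ± 0.35.

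**Figure D5:**
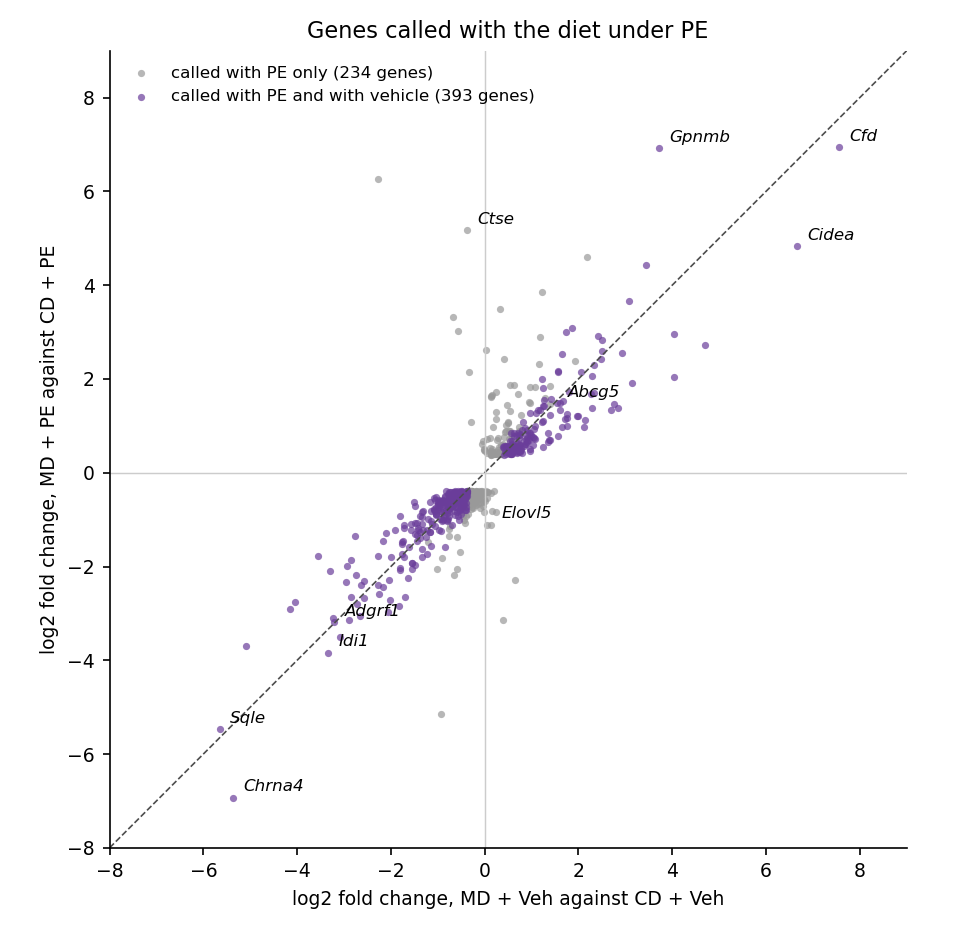
Log2 fold change of the 627 genes called with PE, MD + PE against CD + PE on the vertical axis and MD + Veh against CD + Veh on the horizontal axis, with 1 point per gene, purple where the gene was called in both (393) and grey where it was called with PE only (234). The dashed line marks equal change, and 603 of the 627 points have the same sign on both axes, while Ctse lies at 5.17 with PE and -0.38 with vehicle.

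The difference between the 2 diet effects was tested as an interaction of diet and PE. A single gene passed at an adjusted p below 0.05 (0.00735% of those tested) and 1193 passed at an unadjusted p below 0.05 (8.77%). DESeq2 on the same filtered counts gave 81 genes. The gene was Uck1, a uridine-cytidine kinase, with 0.07 ± 0.09 with PE and 0.98 ± 0.10 with vehicle, a difference of -0.91 ± 0.13 (adjusted p = 0.024). Its level was 32.7, 35.7, 42.1, 30.5 and 31.8 CPM in CD + PE and 41.9, 36.1, 32.6, 32.5 and 37.9 CPM in MD + PE, groups that overlap. H1f2 (-0.91 ± 0.17), Eps8l2 (-1.02 ± 0.20), Epb41l5 (0.54 ± 0.10), Ephx1 (-0.68 ± 0.12), all with an adjusted p above 0.05, had the next smallest interaction p-values among genes of at least 5 CPM. Among genes called with PE and not with vehicle, the smallest interaction p-values were those of Agxt, a peroxisomal transaminase (-0.75 ± 0.11 with PE, -0.09 ± 0.11 with vehicle), Dbi, the acyl-CoA-binding protein (-0.69 ± 0.08 and -0.19 ± 0.08), and Nid2, a basement membrane protein (-0.84 ± 0.16 and 0.24 ± 0.17). None of the 3 passed the interaction test after adjustment. Elovl5 had -1.11 ± 0.23 with PE and 0.13 ± 0.24 with vehicle, with an unadjusted interaction p of 0.00125 (adjusted p = 0.216). No member of any of the 41 lists passed the interaction test after adjustment. The members at an unadjusted p below 0.05 numbered from 0 to 14 per list, the highest number being the 14 of 14 skeletal muscle genes.

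Several measures differ between the vehicle comparison and the PE comparison. The clock score did not overlap between CD + Veh (-4.34 to -3.02) and MD + Veh (-2.17 to -0.0152), and with this score as a covariate the genes called with vehicle came to 401 in place of 1410, while those called with PE came to 573 in place of 627. Skeletal muscle genes were called higher with vehicle in 13 of 14, and with PE in none. With PE all 14 had a negative log2 fold change, with a median of -6.11. Single libraries stood out on both sides. The summed level was 4260 CPM in MD + Veh library 1, against 5.41 to 267 in the rest of its group, and 567 CPM in CD + PE library 1. All 10 PE libraries carry the library numbers 48 to 57, while the vehicle libraries lie on both sides of a division between numbers 45 and 46. Every PE library is shallower than every vehicle library. With the division as a covariate the genes called with vehicle came to 1576. With only the vehicle libraries numbered 39 to 45 they came to 1539. The cause of the larger number of calls with vehicle was not tested.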

How the data were processed

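RNA of whole liver was sequenced after poly(A) selection in 19 libraries of 4 groups, and groups and replicate numbers were taken from the sample labels. The authors trimmed reads with fastp 0.23.4 and quantified them with Salmon 1.10.3 against a GENCODE transcriptome of GRCm39. They deposited estimated counts per gene as whole numbers, which were used as deposited. Totals were 10398820 to 15456729 counts per library, so that genes of a few counts per library are imprecise. Estimated counts can be split between near-identical copies (the H2-Q, Orm, Cyp2c, Cyp3a, Cyp4a, Ugt1a and Acaa1 families), whose members are uncertain.

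Genes were kept by filterByExpr (by group), scaled by TMM and tested with edgeR 4.0.16 (R 4.3.3) by the quasi-likelihood F test, with 1 coefficient per group over all 19 libraries, so that the 4 groups share 1 estimate of the spread. The contrasts were MD + PE against CD + PE, MD + Veh against CD + Veh, and their difference (the interaction), each with Benjamini-Hochberg adjustment over 13597 genes. CPM are relative to the counts of tested genes. Components used log2 CPM with a prior count of 2, and figures add 0.1 CPM. The steps were tested on simulated data. Positions are those of GENCODE mouse release 39 on GRCm39, which gave a single position to 99% of the genes tested.

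The members and the 41 gene lists were chosen with earlier results of these data known. Genes were named by rule. These were the 10 largest rises and falls among called genes with no overlap and at least 5 CPM, then, per list, up to 4 called members and the 2 uncalled members of highest mean, then genes singled out in the study, and last those of smallest interaction p. A few genes that the rule names are not reported here. Named after their values were seen were the remaining called members of short lists (Hmgcs1, Mvk, Pmvk, Mvd, Fdft1, Lss, Cyp51, Msmo1, Hsd17b7, Ebp, Sc5d, Dhcr7, Acat2, Srebf2, Scap, Insig2, Acaca, Elovl6, Slc25a1, Acsl5, Mogat1, Cidea, Abca1, Soat2, Fabp1, Cyp2b10, Sult1e1, Fga, Fgg, Krt23 and Mcm2), with Adgre1, Clec4f, Trem2, Ctsd, Col1a1, Saa1, Pparg, Cyp7a1, Cyp8b1, Cyp4a10, Cyp4a14, Thrsp, G6pc1, Hamp2, Dbp, Bmal1, Muc6, Tff2 and Myh8.

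Replicate numbers were not taken to pair the samples. The deviations of same-numbered CD + PE and MD + PE libraries from their group means correlated above 0.1 in 0 of 5 pairs. Over all 4 groups 6 of 27 same-numbered pairs passed 0.1. The highest was 0.41, between MD + Veh library 1 and CD + PE library 1. No pair of libraries within a group agreed within sampling noise. Alternatives were another normalization (RLE), DESeq2 1.42.0, no filter on low counts or a stricter one, calls at any fold change, robust dispersion and the compared groups alone. Others were a replicate block, the division of library numbers or the clock score as a covariate, only the vehicle libraries numbered 39 to 45, and each library left out. Leaving out 3 or 4 libraries together was chosen after seeing the data.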

Additional observations from a re-analysis of the deposited data

Results flagged for a closer look

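A library was flagged where it stood apart from the other 4 of its group by Dixon's test. This held for 44 of 424 values checked (10.4%). It cannot be set against the 1 in 20 groups that chance flags, since genes could be named because 1 library stood apart. The lists also share genes, so that the values checked are not independent. CD + PE library 2 gave 19 of the 44 and MD + PE library 4 gave 8.

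In CD + PE library 2 the summed levels stood apart for Kupffer cells (1075 CPM), monocytes, neutrophils and chemokines (136), antigen presentation (5934), interferon-stimulated genes (1072), acute phase (23377), sinusoidal endothelium (529), cell cycle (118) and red blood cells (443). Single genes that were high there were Adgre1 (45.6 CPM), Clec4f (93.8), Bmal1 (20.9), H2-Q7 (216), Irf1 (69.7), Orm2 (18.1) and Pnpla3 (5.00). Genes that were low there were the clock output Dbp (10.8 CPM), Pemt (174), Ttr (3820) and Agxt (190). Without this library 987 genes were called in place of 627, and 566 of the 627 were among them.

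MD + PE library 4 was high in the summed annexins (643 CPM) and in Fabp4 (37.6 CPM) and Lpl (74.0). It was low in the summed adipocyte-like genes (3020 CPM), in the list of cholesterol efflux and bile acid genes (2877 CPM), in mitochondrially encoded genes (78903), and in Gnmt (517) and G6pc1 (178). Without it 526 genes were called, 453 of them among the 627.

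MD + PE library 2 stood apart in Ctse (49.3 CPM), Galnt6 (20.2), Krt19 (58.7), Elovl6 (111), Nsdhl (6.99) and the summed intestinal genes (376). Outside the filter on low counts it held 2295 CPM of Muc6 and 959 CPM of Tff2, which were at most 0.198 CPM in CD + PE. CD + PE library 1 stood apart in skeletal muscle genes (567 CPM) and gallbladder genes (8.47), and outside the filter it held 191 CPM of Myh8, a muscle myosin. The gallbladder genes summed to more in MD + PE library 2 (1600.5 CPM) and library 3 (34.9), which Dixon's test did not flag for this list.

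In the remaining libraries single values stood apart, namely Thrsp in CD + PE library 3 (183 CPM), Adgrf1 (16.1) and H1f2 (56.5) in CD + PE library 4, and Bmal1 (18.8), Cyp4a14 (53.4), H2-Q6 (28.4) and Lss (20) in MD + PE library 1. In MD + PE library 3 they were Orm2 (11.6) and Saa1 (69.4). Uck1 was flagged because its diet effect differed between PE and vehicle by -0.91 on the log2 scale (edgeR interaction test).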

How the results depend on the processing

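The 627 calls with PE came to 601 with RLE, 796 with DESeq2, 535 without a filter, 635 with the stricter filter, 621 with robust dispersion, 450 with the compared groups alone, 661 with the division of library numbers and 573 with the clock score as covariate. The fit with the replicate block gave 606 (the numbers were not taken to pair the samples). Without a minimum fold change 964 genes passed, and 607 passed both with PE and with vehicle in place of 393. Leaving out 1 library gave 505 (without MD + PE library 5) to 987 calls (without CD + PE library 2). With the clock score as a covariate the vehicle calls came to 401 in place of 1410 and the shared calls to 216 in place of 393. The single interaction gene became 81 with DESeq2, 41 with the replicate block, 54 with the division of library numbers, 0 with the clock score, and 0 to 3 with 1 library left out. It became 0 as well when 3 or 4 libraries were left out together, which gave 691 and 496 calls with PE. Named genes that lost their calls in both of these fits included Acp3 and Khk. Those that lost them when 4 libraries were left out included Mmp12, Fabp4, Fasn, Cd36, Chac1, Pklr and Nid2. The share of higher genes was 36.7%, and 49.5% without CD + PE library 2, 51.7% without 3 and 48.6% without 4 libraries. Adgre1 (-0.04 with all libraries) ranged from -0.27 without CD + PE library 5 to 1.33 without CD + PE library 2, and was 1.30 without 3 and 1.36 without 4 libraries. The cause of these changes was not tested. Over all single-gene results and settings 4928 kept their call or lack of a call, 264 lost the call and 31 gained it. A further 3 changed sign with a call in at least 1 of the fits. Changes of sign without a call in either fit were counted among the 4928. The totals of 10398820 to 12757617 counts in the PE libraries limit what can be seen in genes of a few counts per library.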

Other observations

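Genes outside the filter on low counts added 17 that exceeded 50 CPM in a PE library. Of these 16 were highest in MD + PE library 2, and Myh8 in CD + PE library 1. The gastrokine Gkn3 reached 502 CPM in MD + PE library 2, 11.0 in library 3 and 0.755 in library 4, and Muc6 stood at 2295, 50.3 and 1.99 CPM in the same order, while both had no count in MD + PE library 1. In the vehicle libraries Gkn3 was at most 0.136 CPM and Muc6 at most 0.358 CPM.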
